A study of Homo sapiens with 26 samples.

Results

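LSD1, encoded by KDM1A, is a histone demethylase that removes methyl groups from lysine 4 of histone H3. It acts with a CoREST scaffold protein (RCOR1, RCOR2 or RCOR3) and with the histone deacetylases HDAC1 or HDAC2. The complex is brought to DNA by factors such as REST, which silences neuronal genes outside neurons, and INSM1, a zinc finger protein of neuroendocrine and sympathetic precursors. HMG20B is a DNA-binding subunit of the complex, and HDAC3 is the deacetylase of the related NCoR co-repressor. RUNX1T1, the target of the hairpins in this study, is a co-repressor without DNA-binding activity of its own that recruits such deacetylase complexes. The 9 genes described here (KDM1A, RCOR1, RCOR2, RCOR3, HDAC1, HDAC2, HDAC3, HMG20B and INSM1) were taken by symbol from tables of 26485 genes, and all 9 were found and passed the filter on low counts.

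The cells were KELLY, a human neuroblastoma cell line that carries MYCN amplification. All carried a doxycycline-inducible lentiviral vector with green fluorescent protein that was empty (EV, given as F1HUTG in the labels) or encoded a hairpin RNA (sh4 or shAMB). The genotype labels of both hairpin lines name RUNX1T1 in the first library and then count its last digit up from library to library, which was read as RUNX1T1 throughout, the target that the study's methods give. Each of these 3 lines was grown for 72 h with DMSO or with doxycycline, in 3 libraries per group, which gave 18 libraries in 6 groups. A second table held 8 subcutaneous KELLY tumours grown in female immunodeficient (NSG) mice, 4 labelled control (genotype WT, control food) and 4 labelled RUNX1T1 KO (doxycycline food). The study's methods describe hairpin-carrying cells for its xenografts, so that KO is used below only as the name of the group. The paper gives the hairpin built on an Ambion siRNA sequence for its tumours, and its other hairpin in culture only. By its name, shAMB was read as that hairpin, so that the shAMB line and the tumours are not independent hairpins. No tumour group was labelled as empty vector. Nothing in the labels says whether replicates were separate cultures, and p-values then measure the spread between these libraries, which may be technical.

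Total expected counts were 35115915 to 62378060 per library. All 10 markers of sympathetic neuroblasts exceeded 1 CPM (counts scaled per library, with library sizes adjusted by TMM) in every group, whereas 4 red cell markers summed to at most 0.135 CPM and 6 leukocyte markers to at most 2.15 CPM. Summed endothelial markers were 2.16 to 7.94 CPM in culture and 8.69 to 15.7 CPM in the tumours, and fibroblast markers were 48.5 to 131 CPM. The neuroblast markers summed to 4500 to 5640 CPM in EV and DMSO libraries, to 5680 to 7190 in sh4 and 8630 to 9470 in shAMB doxycycline libraries, and to 4930 to 6160 in control against 7810 to 10900 CPM in KO tumours. Their part in the results below was not tested. RUNX1T1 itself did not pass the test with doxycycline in any line. In the EV line, which has no hairpin, it was at 39.3 to 44.05 CPM with DMSO and 36.54 to 38.62 CPM with doxycycline. These groups did not overlap, as for 14.1% of all genes (log2 fold change −0.16 ± 0.05 SE, edgeR unadjusted p = 0.0122, adjusted p = 0.672). The log2 fold change was −0.11 ± 0.05 in the sh4 line and 0.06 ± 0.05 in the shAMB line. The RUNX1T1 level was 33.3, 34.7 and 35.0 CPM in sh4 DMSO libraries and 30.1, 31.2 and 33.9 CPM with doxycycline, and 39.9, 40.8 and 42.0 against 41.3, 42.2 and 44.1 CPM in the shAMB line. Tumours had 30.0 to 43.1 CPM as controls and 24.3 to 35.2 CPM when labelled KO (log2 fold change −0.23 ± 0.15 SE, adjusted p = 0.229). Without doxycycline, RUNX1T1 was lower in sh4 DMSO than in EV DMSO libraries (log2 fold change −0.29 ± 0.05, adjusted p = 0.0144), a call lost in 3 of 6 fits that left out 1 library, EV DMSO replicate 1 (adjusted p = 0.106) or sh4 DMSO replicate 1 (adjusted p = 0.0733) or 2 (adjusted p = 0.096). After removal of trends on gene GC content and length, RUNX1T1 was called lower with doxycycline in the sh4 line (−0.22, adjusted p = 0.000454) and in KO tumours (−0.33, adjusted p = 0.0205), and with the deposited TPM it was called higher in the shAMB line (0.23, adjusted p = 0.00555 in limma). The mRNA of the targeted gene thus gave no check of the labels that held across settings, and each direction below is that of the labelled doxycycline or KO libraries. In bulk RNA, fewer cells of a type and less RNA per cell cannot be told apart.

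The genes lie on 7 chromosomes, given here on GRCh38.p14 from RefSeq and not from the deposited tables. KDM1A (chromosome 1, 23019468 to 23083689), HDAC1 (32292083 to 32333626) and RCOR3 (211259366 to 211316385) are on the plus strand of chromosome 1. RCOR1 is on chromosome 14 (102592649 to 102730561), RCOR2 on chromosome 11 (63911230 to 63927762), HDAC2 on chromosome 6 (113933028 to 113971148), HDAC3 on chromosome 5 (141620881 to 141636849), HMG20B on chromosome 19 (3572944 to 3579083) and INSM1 on chromosome 20 (20368104 to 20370949). RCOR2, HMG20B and INSM1 had the most GC-rich transcripts, with 66.2%, 64.6% and 63.2% G or C, whereas RCOR1 had 40.9% and HDAC2 43.8%. Genes on the opposite strand covered 9.24% of the exon bases of HDAC3 (a long non-coding RNA) and 9.57% of those of HMG20B (MFSD12), and the strand setting of the counting is not given in the sources used here. RefSeq lists 2 pseudogenes of HDAC1 and 1 of RCOR2, whose reads a counter could share with the parent gene.

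Promoter sequence is shown for the paralogs HDAC1 and HDAC2 and for KDM1A and HDAC3. HDAC2 was called in none of the main comparisons below and HDAC1 in some of them, and KDM1A and HDAC3 fell with HDAC1 in 2. The changes of the 2 paralogs were not tested against each other. Each run gives the 250 bases before the RefSeq start on GRCh38.p14, 5′ to 3′ on the strand of the gene, with GC boxes (GGGCGG on either strand) in capitals. KDM1A is chr1:23019218-23019467 (+), HDAC1 is chr1:32291833-32292082 (+), HDAC3 is chr5:141636850-141637099 (−) and HDAC2 is chr6:113971149-113971398 (−).
KDM1A: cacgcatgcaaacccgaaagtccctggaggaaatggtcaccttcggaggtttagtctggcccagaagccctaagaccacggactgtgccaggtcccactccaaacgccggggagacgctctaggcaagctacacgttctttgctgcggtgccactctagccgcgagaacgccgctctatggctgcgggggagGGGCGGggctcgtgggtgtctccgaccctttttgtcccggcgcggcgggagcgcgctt
HDAC1: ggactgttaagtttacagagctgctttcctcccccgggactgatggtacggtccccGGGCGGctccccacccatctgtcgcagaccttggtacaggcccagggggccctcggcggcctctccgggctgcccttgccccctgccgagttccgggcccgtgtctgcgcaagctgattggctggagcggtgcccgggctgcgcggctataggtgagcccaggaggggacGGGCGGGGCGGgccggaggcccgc
HDAC3: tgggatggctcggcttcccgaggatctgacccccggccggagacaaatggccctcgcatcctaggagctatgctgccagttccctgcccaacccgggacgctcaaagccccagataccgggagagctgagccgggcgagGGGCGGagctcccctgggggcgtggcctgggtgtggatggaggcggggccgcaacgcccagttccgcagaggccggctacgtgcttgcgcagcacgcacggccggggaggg
HDAC2: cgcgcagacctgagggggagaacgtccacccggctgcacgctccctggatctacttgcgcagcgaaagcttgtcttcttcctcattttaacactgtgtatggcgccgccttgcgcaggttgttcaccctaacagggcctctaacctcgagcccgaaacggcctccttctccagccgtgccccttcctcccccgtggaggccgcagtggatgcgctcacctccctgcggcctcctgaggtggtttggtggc

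These windows held 1 GC box in KDM1A, 3 in HDAC1 (of which 2 overlap), 1 in HDAC3 and 0 in HDAC2. RefSeq windows were matched for 7 of the 9 genes (8 windows, since RCOR3 had 2), and 7 of the 8 windows held a GC box, against 42.6% of all 35116 promoter windows of this length. The 8 windows had 63.2% to 77.2% G or C, where the median of all windows was 58%. The part of this base composition in the number of GC boxes was not tested. CCAAT on either strand was found in 4 of the 8 windows and in 32% of all. An E-box (CACGTG, the core sequence bound by MYC family proteins) was in 0 of the 8 windows and in 6.34% of all, and TATAAA was in 0 and in 10.7%. CCGGAAG, an ETS core, was in 0 of the 8 and in 8.52%. Matches to letters are descriptions of these windows and do not show binding.

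KDM1A was the most abundant of the 9 genes for its length in all 8 groups. In EV DMSO libraries its level per kilobase of transcript was 187.5 ± 3.4 CPM per kb (SD, n = 3). The 3 deacetylases followed, HDAC2 at 71.8 ± 5.3, HDAC1 at 64.5 ± 1.7 and HDAC3 at 50.5 ± 3.4 CPM per kb. Among the scaffolds, RCOR3 was at 20.9 ± 1.9, RCOR2 at 10.01 ± 2.37 and RCOR1 at 7.08 ± 0.13 CPM per kb, with HMG20B at 6.45 ± 1.24 and INSM1 at 1.62 ± 0.19 CPM per kb. Neighbours in this order whose libraries overlapped were RCOR1 and HMG20B alone. The order of the group means differed elsewhere. In the shAMB doxycycline libraries RCOR2 (17.9 ± 2.0 CPM per kb) stood above RCOR3 (16.2 ± 0.6), with overlapping libraries, and the libraries of HDAC3 (41.4 ± 1.2) and HDAC1 (40.7 ± 1.8) overlapped. HDAC1 stood above HDAC2 in the sh4 doxycycline libraries (80.1 ± 0.8 against 69.2 ± 6.9), without overlap, and already in sh4 DMSO libraries (65.8 ± 1.2 against 65.3 ± 4.0), with overlap. HMG20B stood above RCOR1 in EV doxycycline (7.73 ± 0.45 against 6.74 ± 0.13) and sh4 DMSO libraries (8.75 ± 1.51 against 6.73 ± 0.21). It also did in sh4 doxycycline (6.485 ± 1.909 against 4.796 ± 0.205) and shAMB doxycycline libraries (7.36 ± 0.62 against 6.13 ± 0.27). In tumours labelled KO, HDAC3 (32.5 ± 1.2) stood above HDAC1 (24.7 ± 1.1) without overlap, RCOR2 (16.1 ± 4.8) stood above RCOR3 (13.8 ± 1.5) with overlap, and INSM1 reached 4.63 ± 0.69 CPM per kb, above HMG20B at 3.01 ± 0.89.

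**Figure D1:**
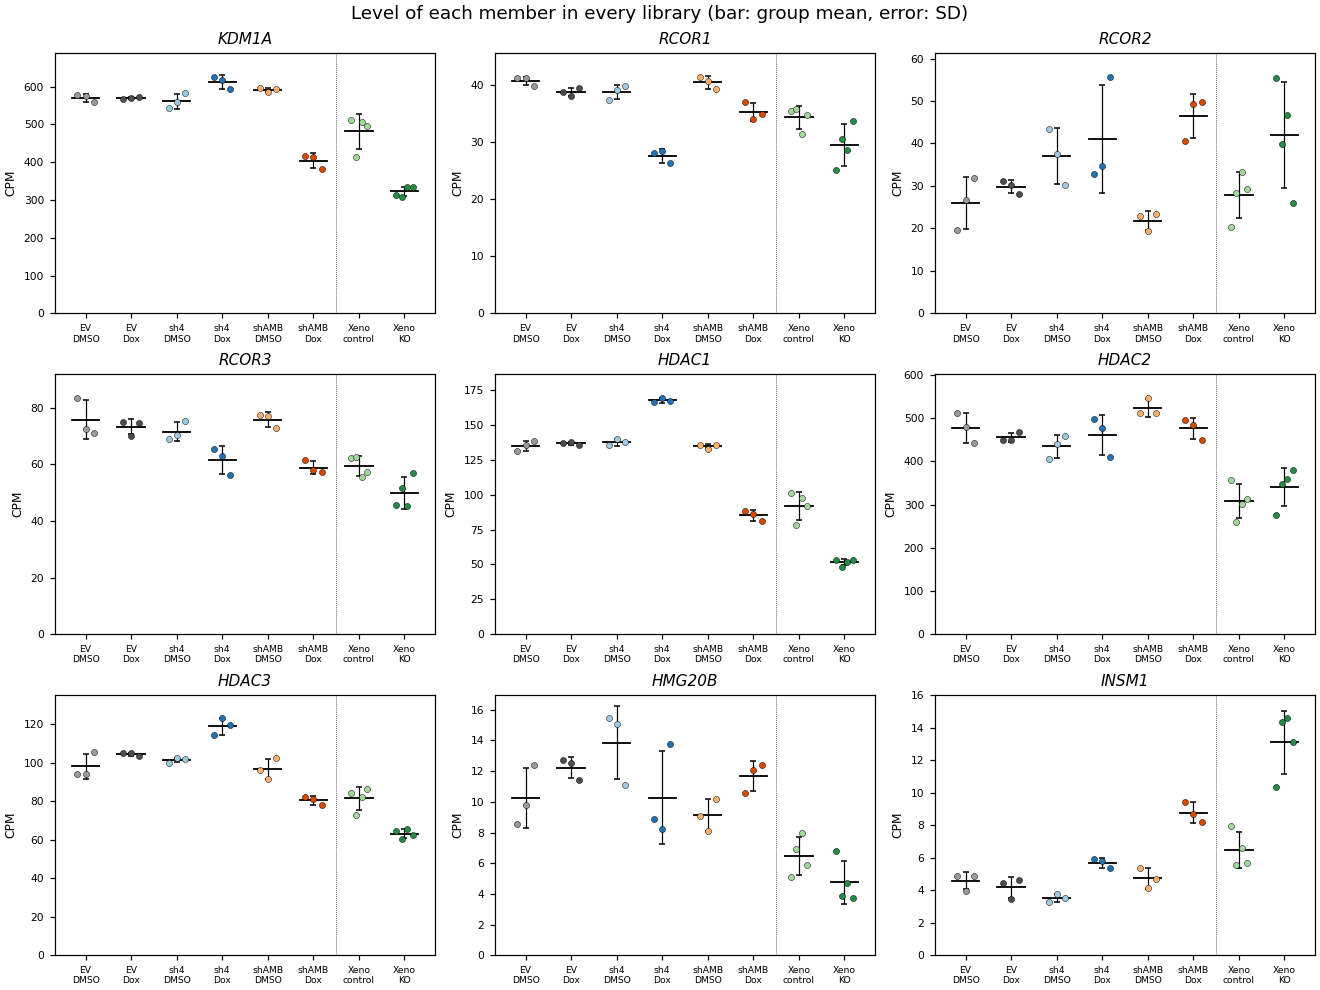
Level of each of the 9 genes in every library, in CPM on a linear axis from 0, for the 6 culture groups and, right of the dotted line, the 2 xenograft groups (points: libraries; bars: group mean; error bars: SD). KDM1A, HDAC1 and HDAC3 are lower with doxycycline in the shAMB line and in tumours labelled KO, while INSM1 is higher. The 2 tables were scaled separately.

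Doxycycline alone was examined in the EV line. Of the 9 genes, 0 passed the test (edgeR's quasi-likelihood F test, Benjamini-Hochberg adjusted p under 0.05 over all genes tested), against 0.0939% of all 14905 genes, 0 had an unadjusted p under 0.05, and DESeq2 called 0 as well. KDM1A was at 577.8, 576.4 and 559.1 CPM with DMSO and at 566.3, 570.4 and 573.6 CPM with doxycycline. HDAC1 was at 131.1, 135.8 and 138.0 against 137.1, 137.7 and 135.6 CPM. Both ranges overlapped, and the 95% interval of the log2 fold change was −0.09 to 0.08 for KDM1A and −0.06 to 0.10 for HDAC1. The widest interval was that of RCOR2, −0.22 to 0.62. Libraries of the 2 groups did not overlap for 1 gene, RCOR1 (39.90 to 41.20 against 38.05 to 39.55 CPM), where 14.1% of all genes did not overlap. The lines were also compared before induction. In the sh4 DMSO libraries 0 of 9 differed from EV DMSO (1.12% of all genes did), although 3 had an unadjusted p under 0.05, and in shAMB DMSO libraries 0 of 9 did (1.52% of all genes), with 0 at an unadjusted p under 0.05. DESeq2 called 0 of 9 in both.

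In the shAMB line 7 of the 9 genes were called with doxycycline. KDM1A, HDAC1, HDAC3, RCOR1 and RCOR3 fell (5 of 9, against 28.4% of all genes called lower), and RCOR2 and INSM1 rose (2 of 9, against 37.6% called higher). The median log2 fold change of the 9 genes was −0.20, beside 0.10 over all genes tested. All 9 had groups that did not overlap, as did 73.4% of all genes.

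KDM1A was at 596.0, 586.8 and 593.1 CPM with DMSO and at 417.0, 413.4 and 382.2 CPM with doxycycline. Every doxycycline library lay below every DMSO library, and the log2 fold change was −0.55 ± 0.04 (SE, n = 3 per group, adjusted p = 9.19e-09), so that the level fell by 31.7%. HDAC1 went from 135.2, 132.9 and 135.4 to 88.2, 86.2 and 81.0 CPM (log2 fold change −0.66 ± 0.04, adjusted p = 3.78e-10). It was the largest fall among the 9. HDAC3 fell by less, from 96.6, 91.9 and 102.4 to 82.3, 81.2 and 77.9 CPM (−0.27 ± 0.05, adjusted p = 0.000227). HDAC2, the close paralog of HDAC1, was at 510.7, 547.4 and 512.0 CPM with DMSO and 496.0, 483.4 and 449.4 CPM with doxycycline. These groups did not overlap either, but the change did not pass the test (−0.14 ± 0.07, 95% interval −0.29 to 0.01, adjusted p = 0.103). HDAC2 did pass with RLE factors (−0.21, adjusted p = 0.031), which scale libraries by median ratios, and with DESeq2 (−0.21, adjusted p = 0.0235). It also passed after removal of the GC and length trends (−0.12, adjusted p = 0.00147) and in a fit of the shAMB groups alone (−0.22, adjusted p = 0.00418). With the deposited TPM it did not pass (0.04, adjusted p = 0.631 in limma).

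The scaffolds went in different directions in this line. RCOR3 went from 77.4, 77.1 and 72.7 to 61.5, 57.9 and 57.3 CPM (log2 fold change −0.36 ± 0.07, adjusted p = 0.000214). RCOR1 went from 41.5, 40.7 and 39.2 to 36.99, 33.96 and 34.87 CPM (−0.20 ± 0.05, adjusted p = 0.00195). RCOR2 was higher, at 22.8, 19.3 and 23.4 CPM with DMSO and 40.6, 49.3 and 49.8 CPM with doxycycline (1.09 ± 0.20, adjusted p = 0.000177), a 2.13-fold level with no overlap. INSM1 rose as well, from 5.37, 4.13 and 4.68 to 9.45, 8.69 and 8.19 CPM (0.89 ± 0.13, adjusted p = 1.58e-05). With the deposited TPM in place of counts, the calls of HDAC3 (−0.09, adjusted p = 0.0935 in limma), RCOR3 (−0.13, adjusted p = 0.155) and RCOR1 (−0.02, adjusted p = 0.793) in the shAMB line were lost, while KDM1A (−0.37, adjusted p = 8.75e-07) and HDAC1 (−0.48, adjusted p = 2.14e-09) were called. HMG20B was at 9.09, 8.08 and 10.2 against 10.6, 12.1 and 12.4 CPM and did not pass the test (0.35 ± 0.18, adjusted p = 0.1). It was called higher with the deposited TPM (0.51, adjusted p = 0.0141 in limma) and in a fit of the shAMB groups alone (0.28, adjusted p = 0.0396). After removal of the GC and length trends it was called lower (−0.55, adjusted p = 0.000145).

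**Figure D2:**
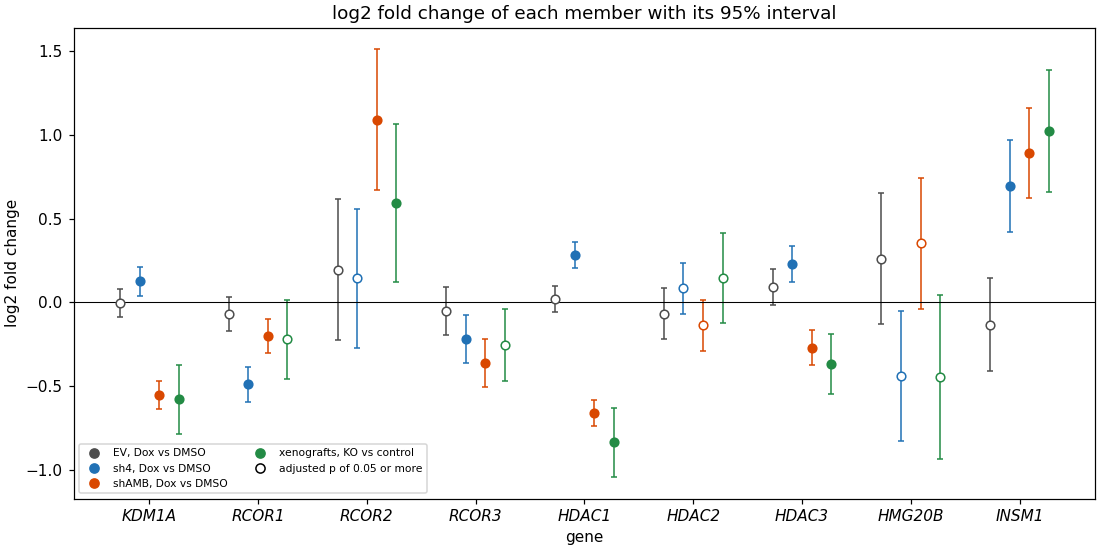
Log2 fold change of each gene with its 95% interval for the EV, sh4 and shAMB lines (doxycycline against DMSO, 3 libraries per group) and for tumours (KO against control, 4 per group). Filled points have an adjusted p under 0.05; the sh4 and shAMB points of KDM1A, HDAC1 and HDAC3 lie on opposite sides of 0.

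The sh4 line gave another pattern, in which KDM1A, HDAC1, HDAC3 and INSM1 rose (4 of 9, against 22.9% of all genes called higher) and RCOR1 and RCOR3 fell. In all 6 of 9 were called, against 40.9% of all genes. The groups of 6 genes did not overlap, as for 41.3% of all genes. HDAC1 was at 135.1, 140.1 and 137.4 CPM with DMSO and 166.0, 169.4 and 166.8 CPM with doxycycline (log2 fold change 0.28 ± 0.04, adjusted p = 1.06e-05). HDAC3 rose from 100.2, 102.5 and 101.8 to 114.4, 123.1 and 119.6 CPM (0.23 ± 0.05, adjusted p = 0.00155). KDM1A had the smallest called change, from 543.2, 560.0 and 582.3 to 626.7, 618.8 and 593.0 CPM (0.13 ± 0.04, adjusted p = 0.0187). Its call was lost in 4 of the 6 fits that left out 1 sh4 library (lowest value 0.09 without sh4 DMSO replicate 1, adjusted p = 0.195) and with RLE factors (0.12, adjusted p = 0.0582).

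RCOR1 fell from 37.4, 39.1 and 39.7 to 28.1, 28.5 and 26.3 CPM in the sh4 line (log2 fold change −0.49 ± 0.05, adjusted p = 8.18e-07), so that the level fell by 28.7%. RCOR3 went from 69.0, 70.3 and 75.3 to 65.5, 63.0 and 56.1 CPM (−0.22 ± 0.07, adjusted p = 0.017), and its call was lost without sh4 doxycycline replicate 3 (−0.16, adjusted p = 0.0618) or without sh4 DMSO replicate 3 (−0.18, adjusted p = 0.0667), and with the deposited TPM (−0.05, adjusted p = 0.646 in limma). INSM1 rose from 3.27, 3.76 and 3.55 to 5.95, 5.80 and 5.35 CPM (0.69 ± 0.13, adjusted p = 0.000426). These groups did not overlap. RCOR2 and HMG20B did not pass the test, and both spread widely: RCOR2 was at 43.5, 37.5 and 30.3 CPM with DMSO and at 32.9, 34.6 and 55.7 CPM with doxycycline. HMG20B was at 15.4, 15.0 and 11.1 against 8.86, 8.21 and 13.7 CPM. Replicate 3 of the doxycycline group was the highest of its group for both genes, and without it the HMG20B change passed (−0.70, adjusted p = 0.00163). The HMG20B change also passed without sh4 DMSO replicate 3 (−0.57, adjusted p = 0.0248), with RLE factors (−0.45, adjusted p = 0.0468) and with DESeq2 (−0.45, adjusted p = 0.0322). HDAC2 was at 405.6, 440.9 and 457.8 against 497.2, 476.0 and 408.9 CPM (0.08 ± 0.07, 95% interval −0.07 to 0.23, adjusted p = 0.365). It was called higher with the deposited TPM (0.25, adjusted p = 0.0108 in limma) and without sh4 doxycycline replicate 3 (0.16, adjusted p = 0.0457). After removal of the GC and length trends it was called lower (−0.08, adjusted p = 0.0277).

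The difference between the 2 hairpins was tested as an interaction. The effect in the sh4 line minus that in the shAMB line was positive for HDAC1 (0.94 ± 0.05, adjusted p = 7.89e-10), KDM1A (0.68 ± 0.06, adjusted p = 8.28e-08) and HDAC3 (0.50 ± 0.07, adjusted p = 2.4e-05). It was negative for RCOR2 (−0.95 ± 0.28, adjusted p = 0.00806), HMG20B (−0.79 ± 0.26, adjusted p = 0.0153) and RCOR1 (−0.29 ± 0.07, adjusted p = 0.00188). In all, 3 genes were called higher and 3 lower, against 27.8% and 33.1% of all genes. For INSM1 the difference was −0.20 ± 0.18 (95% interval −0.58 to 0.18, adjusted p = 0.353) and for RCOR3 0.15 ± 0.10 (−0.06 to 0.35, adjusted p = 0.194).

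Against the EV line, the shAMB effect was lower for HDAC1 (−0.68 ± 0.05, adjusted p = 4.04e-08), KDM1A (−0.55 ± 0.06, adjusted p = 1.2e-06), HDAC3 (−0.36 ± 0.07, adjusted p = 0.000651) and RCOR3 (−0.32 ± 0.10, adjusted p = 0.0132), and higher for INSM1 (1.02 ± 0.18, adjusted p = 0.000267) and RCOR2 (0.89 ± 0.28, adjusted p = 0.0159). These are 4 lower and 2 higher of 9, against 21.7% and 23.7% of all genes. The RCOR2 call rests on EV DMSO replicate 3 (0.72, adjusted p = 0.0507 without it). The sh4 effect exceeded that of EV for INSM1 (0.83 ± 0.18, adjusted p = 0.00283) and HDAC1 (0.26 ± 0.05, adjusted p = 0.00095) and was below it for RCOR1 (−0.42 ± 0.07, adjusted p = 0.000252) and HMG20B (−0.70 ± 0.26, adjusted p = 0.0491). These are 2 higher and 2 lower, against 17.8% and 14.7% of all genes, and the HMG20B call was lost in 9 of 12 fits that left out 1 library (lowest size −0.56 without sh4 doxycycline replicate 2, adjusted p = 0.128). The 3 differences share libraries with each other.

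In the tumours, KDM1A, HDAC1 and HDAC3 were lower and RCOR2 and INSM1 higher in the group labelled KO. These were 3 of 9 lower (19.9% of all 15960 genes were called lower) and 2 of 9 higher (21.2%), and 4 genes had groups that did not overlap (36.7% of all). KDM1A was at 510.7, 414.4, 507.4 and 495.1 CPM in controls and at 314.4, 309.3, 334.0 and 333.4 CPM in the KO group (log2 fold change −0.58 ± 0.09, n = 4 per group, adjusted p = 0.000643). HDAC1 was at 101.2, 78.2, 97.2 and 91.8 against 53.1, 48.5, 51.6 and 53.5 CPM (−0.83 ± 0.09, adjusted p = 8.01e-05), so that the level fell by 43.9%. HDAC3 was at 84.2, 73.1, 82.4 and 86.6 against 64.5, 60.2, 65.5 and 62.7 CPM (−0.37 ± 0.08, adjusted p = 0.00412). For all 3 genes every KO tumour lay below every control tumour. With the deposited TPM the calls of KDM1A (−0.53, adjusted p = 0.332 in limma), HDAC1 (−0.74, adjusted p = 0.0911) and HDAC3 (−0.31, adjusted p = 0.612) were lost. Short non-coding RNA and rRNA genes held 74.44 to 86.95% of the TPM in tumours and 0.5699 to 1.122% in culture. The TPM were not rescaled before the fit, and KDM1A ran from 46.17 to 95.38 TPM within the control tumours. The part of the small RNA share in the lost calls was not tested.

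INSM1 rose in the tumours from 7.96, 5.58, 6.59 and 5.67 to 10.3, 14.4, 14.6 and 13.1 CPM (log2 fold change 1.02 ± 0.17, adjusted p = 0.000717), a 2.03-fold level without overlap. RCOR2 was at 20.5, 28.3, 33.3 and 29.4 CPM in controls and at 55.5, 39.98, 46.70 and 26.01 CPM in the KO group (0.59 ± 0.21, adjusted p = 0.0462). KO replicate 4 lay inside the range of the controls, and the RCOR2 call was lost in 6 of 8 fits that left out 1 tumour (0.43 to 0.62, adjusted p of 0.0795 to 0.138). RCOR1 was at 35.4, 35.8, 31.4 and 34.8 against 25.1, 30.6, 28.6 and 33.7 CPM (−0.22 ± 0.11, adjusted p = 0.128). RCOR3 was at 62.4, 62.5, 55.6 and 57.5 against 45.5, 51.5, 45.4 and 57.1 CPM (−0.25 ± 0.10, 95% interval −0.47 to −0.04, adjusted p = 0.0562). Both scaffolds overlapped between the groups. HDAC2 was at 355.9, 260.1, 301.0 and 314.0 against 276.8, 347.6, 358.6 and 379.3 CPM (0.15 ± 0.12, 95% interval −0.12 to 0.42, adjusted p = 0.373), and HMG20B at 5.12, 6.91, 7.97 and 5.90 against 6.78, 3.85, 4.69 and 3.73 CPM (−0.44 ± 0.22, adjusted p = 0.136).

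The makeup of the paralogs followed from these levels and is given without a test. HDAC1 made up 43.6% to 45.7% (3 libraries) of HDAC1 plus HDAC2 per kilobase in shAMB DMSO libraries and 36.2 ± 0.2% (SD, n = 3) with doxycycline, and 48.8 ± 1.4% (n = 4) in control tumours against 32.8 ± 3.5% in the KO group. The libraries did not overlap in either pair. In the sh4 line it was 50.2 ± 1.3% and 53.7 ± 2.6%, and in the EV line 47.4 ± 2.5% and 48.9 ± 0.8%. RCOR3 was the leading scaffold in 6 of 8 groups, with 55.0 ± 5.5% of the 3 scaffolds in EV DMSO libraries. RCOR2 went from 23.1 ± 2.1% to 44.3 ± 3.8% in the shAMB line and from 32.2 ± 5.4% to 45.5 ± 10.4% in the tumours, and RCOR1 from 16.6 ± 1.1% to 12.9 ± 1.6% in the sh4 line. The RCOR2 shares of the tumours overlapped (25.1% to 38.1% against 31.6% to 55.7%). Shares were not recomputed after removal of the GC and length trends, which took the RCOR2 log2 fold change in the shAMB line to 0.02 (adjusted p = 0.891).

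**Figure D3:**
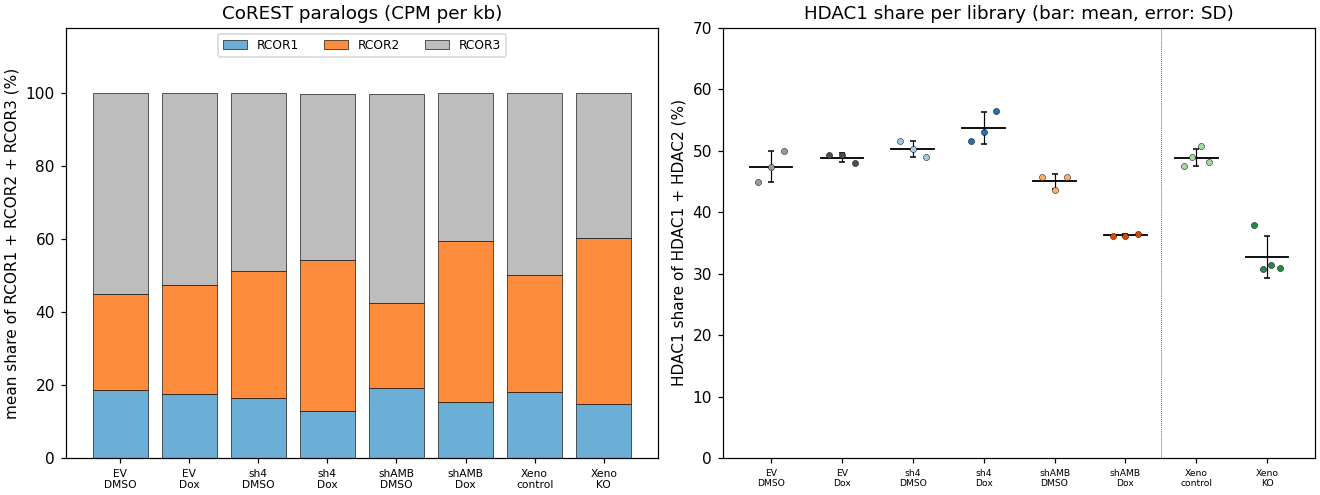
Left, mean share of RCOR1, RCOR2 and RCOR3 in their sum on the CPM per kb scale for the 8 groups. Right, share of HDAC1 in HDAC1 plus HDAC2 per library with group mean and SD; the shares of shAMB doxycycline libraries (36.1% to 36.4%) and of KO tumours (30.7% to 37.9%) lie below those of their DMSO and control groups.

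Base composition of the libraries moved with part of these results. For each library the median log2 level of GC-rich genes (in culture, 2294 genes with at least 54.4% G or C) was compared with that of GC-poor genes (2294 with at most 42.9%), relative to the mean library of its table (genes averaging under 10 CPM were left out). This difference ranged from −0.54 to 0.53. It was −0.27, −0.54 and −0.24 in shAMB DMSO libraries and −0.02, 0.20 and 0.35 with doxycycline, so that the shAMB groups did not overlap. In the sh4 line it was 0.53, 0.25 and 0.01 with DMSO and −0.36, −0.19 and 0.44 with doxycycline, and RCOR2 followed the same order within both groups. HMG20B was highest in sh4 DMSO replicate 1 and sh4 doxycycline replicate 3 as well, the libraries with the highest GC difference in their groups. In the tumours the highest RCOR2 level, 55.5 CPM, and the lowest of the KO group, 26.01 CPM, were in the tumours with differences of 0.39 and −0.52.

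Removing a trend of counts on gene GC content and length in each library before the fit took the RCOR2 change in the shAMB line from 1.09 to 0.02 (adjusted p = 0.891) and that of INSM1 from 0.89 to 0.05 (adjusted p = 0.878). HMG20B then fell there (−0.55, adjusted p = 0.000145). The RCOR2 difference between hairpins turned to 0.53 (adjusted p = 0.00166), that of HMG20B to 0.52 (adjusted p = 0.00456) and that of INSM1 to 1.01 (adjusted p = 0.023). With doxycycline in the shAMB line INSM1 was at 9.45, 8.69 and 8.19 CPM while the GC difference was −0.02, 0.20 and 0.35, whereas with DMSO its lowest level, 4.13 CPM, was in the library with the lowest GC difference, −0.54. The falls in the shAMB line were called after the removal for KDM1A (−0.48, adjusted p = 1.02e-12), HDAC1 (−0.65, adjusted p = 6.35e-14), HDAC3 (−0.26, adjusted p = 2e-06), RCOR3 (−0.24, adjusted p = 5.74e-06) and RCOR1 (−0.10, adjusted p = 0.0427). So were INSM1 in the sh4 line (1.06, adjusted p = 0.00268) and in the tumours (0.92, adjusted p = 0.0294), RCOR2 in the tumours (0.38, adjusted p = 0.00878) and, with the removal only, RCOR2 in the sh4 line (0.55, adjusted p = 5.37e-05).

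**Figure D4:**
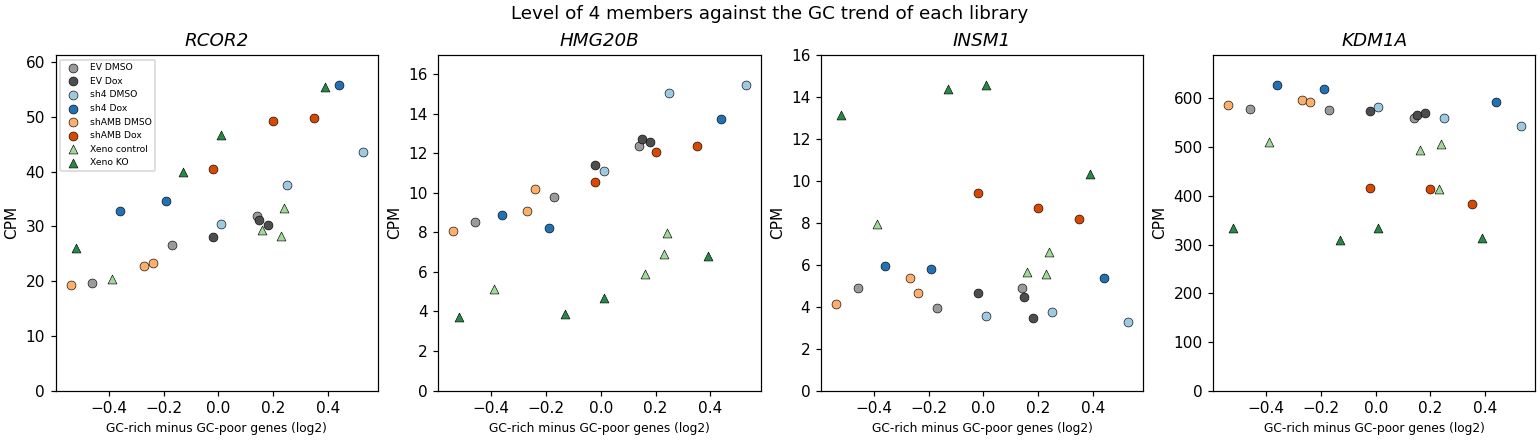
Level in CPM of RCOR2, HMG20B, INSM1 and KDM1A in each of the 26 libraries (circles: culture; triangles: xenografts) against the log2 difference between GC-rich and GC-poor genes of the same library. Within the sh4 groups RCOR2 is higher in libraries further right; the shAMB DMSO libraries lie at −0.54 to −0.24 and the shAMB doxycycline libraries at −0.02 to 0.35.

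The deposited counts and TPM (transcript abundance per library, corrected for length) together also gave the mean length of the transcripts to which the authors' quantification assigned the reads of a gene. Only 3 of the 9 genes had more than 1 transcript in the table. For KDM1A (3044 to 3050 bases) and HDAC2 (6656 to 6659 bases) this length was nearly the same in all 26 libraries. RCOR3, with 4 transcripts, had a mean length of 3524 to 3618 bases in shAMB DMSO libraries and 3412 to 3487 bases with doxycycline, which did not overlap (difference −126 bases, exact two-sided permutation test p = 0.1, the smallest that 3 against 3 libraries allow). The difference was −24 bases in the EV line (p = 0.4 in the exact permutation test), 8 bases in the sh4 line (exact p = 0.8) and 16 bases in the tumours (exact p = 0.8), with overlapping groups. The 4 lengths were compared after the tables had been seen, and a weighting of shorter RCOR3 transcripts rests on assigning reads among overlapping isoforms.

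**Figure D5:**
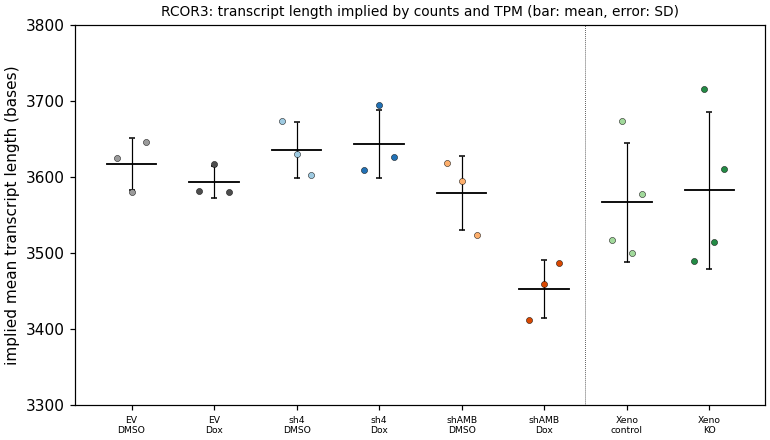
Mean RCOR3 transcript length in bases implied by the ratio of expected count to TPM, per library (points), with group mean and SD. The axis does not start at 0; the 3 shAMB doxycycline libraries (3412 to 3487 bases) lie below all other culture libraries (3524 to 3694 bases).

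Of the genes compared with KDM1A over the 8 group means (8765 genes with at least 10 CPM in both tables), AGK, MEST, MED20, UGGT1 and UGDH had the pattern most like it, with root mean square differences of 0.0197 to 0.0322 in centred log2(CPM + 1). For RCOR2 they were BIN1, PREX1, ST6GALNAC6, ARHGEF25 and QSOX1, with larger differences of 0.0782 to 0.0894. INSM1 was below the minimum of 10 CPM and was not compared.

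Partner genes of the complex changed in both directions. The counts of called genes in this and the following lists stand beside 37.6% of all genes called higher and 28.4% called lower in the shAMB line, 22.9% higher and 40.9% called in either direction in the sh4 line, and 21.2% higher and 19.9% lower in the tumours. The list counts were not repeated after removal of the GC and length trends, and the shAMB groups did not overlap in GC difference. Of 8 tested CoREST partners, 4 rose and 2 fell in the shAMB line, 2 rose and 3 fell in the sh4 line, and 3 rose and 3 fell in the tumours. PHF21A, a reader of unmethylated lysine 4 of histone H3, rose in the shAMB line (0.72, adjusted p = 1.21e-09), the sh4 line (0.20, adjusted p = 0.00149) and the tumours (0.35, adjusted p = 0.0238). ZMYM2 rose in the shAMB line, the sh4 line and the tumours (0.21, 0.35 and 0.40, adjusted p of 0.019, 0.00125 and 0.00932). GSE1 rose in the shAMB line (0.49, adjusted p = 1.26e-08), a change that was −0.10 (adjusted p = 0.405) after removal of the GC and length trends. KDM1B, the LSD1 paralog, fell in the shAMB line from 53.8 ± 1.3 to 28.2 ± 1.1 CPM (−0.93, adjusted p = 1.85e-08) and in the tumours (−0.53, adjusted p = 0.00376). Libraries of the sh4 line had 47.8 ± 2.6 and 47.00 ± 4.31 CPM of KDM1B (−0.02, adjusted p = 0.814), and the hairpins differed (0.91 ± 0.10, adjusted p = 1.84e-06). Of the 4 H3K4 demethylases in its list, KDM1B included, 1 rose and 2 fell in the shAMB line.

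Among 7 tested factors that recruit the complex, 3 rose and 2 fell in the shAMB line (37.6% and 28.4% of all genes did), 3 rose and 1 fell in the sh4 line, and 1 rose and 1 fell in the tumours. REST rose in the sh4 line from 18.3 ± 1.6 to 40.3 ± 3.7 CPM (1.14, adjusted p = 2.44e-08), in the shAMB line from 18.4 ± 0.8 to 25.9 ± 1.4 CPM (0.49, adjusted p = 8.81e-05) and in the tumours from 4.14 ± 0.51 to 6.001 ± 1.347 CPM (0.54, adjusted p = 0.0472). The rise of REST was larger with sh4 than with shAMB (difference 0.65 ± 0.12, adjusted p = 0.000199). INSM2, the paralog of INSM1, moved the other way from it, from 357.1 ± 19.8 to 192.1 ± 10.1 CPM in the shAMB line (−0.89, adjusted p = 1.41e-09), and was lower in the sh4 line (−0.20, adjusted p = 0.00875) and in the tumours (−0.30, adjusted p = 0.0119). Of 14 tested neuronal genes that REST is known to silence, 10 rose and 2 fell in the shAMB line (37.6% and 28.4% of all genes did). In the sh4 line 1 rose and 6 fell, where 22.9% of all genes were called higher and 40.9% in either direction. In the tumours 7 rose and 2 fell of 15 (21.2% and 19.9% of all genes). The part of the GC and length trends in these counts was not tested. VGF, a secreted neuropeptide precursor, was at 1.18 ± 0.20 and 11.5 ± 2.7 CPM in the shAMB line (3.29, adjusted p = 3.79e-09) and at 1.72 ± 0.26 and 0.690 ± 0.199 CPM in the sh4 line (−1.32, adjusted p = 0.000342). L1CAM, an adhesion protein of axons, rose with VGF in the shAMB line (1.93, adjusted p = 2.71e-06), as did the cadherin CELSR3 (adjusted p = 1.47e-06), which rose in the tumours as well (0.88, adjusted p = 0.000453), whereas STMN2, a regulator of microtubules in growing axons, fell in the shAMB line (−1.55, adjusted p = 6.77e-11), the sh4 line (−0.78, adjusted p = 3.72e-07) and the tumours (−0.51, adjusted p = 0.00333).

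Other deacetylases and the other HDAC1 complexes showed no common direction. Of 8 other classical deacetylases, 3 rose and 2 fell in the shAMB line and 2 rose and 1 fell in the sh4 line. HDAC8 was at 39.0 ± 1.1 and 24.3 ± 1.6 CPM in the shAMB line (−0.68, adjusted p = 2.2e-07) and at 34.7 ± 2.7 and 43.7 ± 2.5 CPM in the sh4 line (0.34, adjusted p = 0.000558), the same directions as HDAC1, and fell in the tumours (−0.53, adjusted p = 0.00147). HDAC9 fell in the shAMB line (−0.60, adjusted p = 2.63e-07) and rose in the sh4 line (0.33, adjusted p = 0.000256) and in the tumours (0.37, adjusted p = 0.0198). In the NuRD complex, a nucleosome remodeller that contains HDAC1 and HDAC2, 5 of 13 genes rose and 6 fell in the shAMB line (37.6% and 28.4% of all genes did), and 2 rose and 5 fell in the tumours (21.2% and 19.9%). CHD5, its neuronal ATPase, rose from 0.553 ± 0.234 to 3.65 ± 0.61 CPM in the shAMB line (2.72, adjusted p = 1.9e-06), and also rose in the sh4 line (1.73, adjusted p = 0.000272) and in the tumours (2.27, adjusted p = 8.79e-05). GATAD2A (−0.75, adjusted p = 0.000415), CDK2AP1 (−0.54, adjusted p = 1.96e-08) and the histone chaperone RBBP7 (−0.40, adjusted p = 2.24e-05) fell in the shAMB line. All of these fell in the tumours too. In the sh4 line CDK2AP1 rose (0.30, adjusted p = 3.3e-05), and GATAD2A and RBBP7 were not called. In the SIN3 complex 2 of 13 genes rose and 6 fell in the shAMB line, with SAP30L (−0.57, adjusted p = 3.52e-07), SAP18 (−0.52, adjusted p = 1.86e-07) and the scaffold SIN3A (−0.34, adjusted p = 1.69e-06) among those that fell. ARID4A rose there (0.42, adjusted p = 0.000244). SIN3A was also lower in the sh4 line (−0.27, adjusted p = 4.5e-05), where SAP30L and SAP18 were not called, and in the tumours (−0.36, adjusted p = 0.0214). In the NCoR complex, 4 of 6 rose in the shAMB line, among them CORO2A (0.49, adjusted p = 9.63e-07), and 1 fell, TBL1X (−0.55, adjusted p = 9.09e-07). In the tumours CORO2A rose (0.80, adjusted p = 7.8e-05) and TBL1X fell (−0.73, adjusted p = 0.00101) as well. Of the 6 scaffolds of the MiDAC and MIER complexes, 2 were higher in the shAMB line, 1 lower in the sh4 line and 0 called in the tumours, where 1 had an unadjusted p under 0.05. In EV libraries 0 of the 79 tested genes of these lists passed, and 6 had an unadjusted p under 0.05.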

How the data were processed

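RNA-seq libraries of 18 KELLY cultures and 8 KELLY xenografts were analysed from the tables deposited by the authors. The expected counts deposited by the authors are estimates of reads per gene, not normalized, made with STAR, SAMtools and RSEM on hg38 per the submitters' processing notes; versions and any removal of mouse reads are not given in the sources used here. The deposited TPM values were scaled by the authors to gene length and to a common total per library. Short non-coding RNA and rRNA genes held 7.087 to 18.33% of xenograft counts and 0.7428 to 1.574% of culture counts.

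After rounding to integers, the expected counts were tested with edgeR 4.0.16 (R 4.3.3): filterByExpr, TMM factors, glmQLFit and two-sided glmQLFTest, Benjamini-Hochberg adjustment over all genes tested and a threshold of 0.05. The 18 culture libraries shared 1 fit, and the 8 xenografts were fitted alone. Groups came from the labels, and the column endings Neg and Pos were taken for DMSO and doxycycline, respectively. The test was checked on simulated counts. The genes described and the lists were chosen with earlier results of these data known. From each list, up to 4 genes are named, those with the largest change in the shAMB line among genes called there and in the xenografts. A gene that this rule names is not reported here. Alternatives were RLE factors, no filter, DESeq2 1.42.0, the replicate number as a block, removal of trends on gene GC content and length, library sizes without small RNA genes, deposited TPM as log2(TPM + 1) in limma 3.58.1, the groups of a comparison alone and leaving out each library. Chi-square per degree of freedom between replicates was at least 1.8, and no libraries were identical. Counting error limits only the genes with few reads.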

Additional observations from a re-analysis of the deposited data

Results flagged for a closer look

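One control tumour stood apart for KDM1A. Replicate 2 had 414.4 CPM while the others had 495.1 to 510.7 CPM, and its gap took 0.838 of the range of the group, above Dixon's critical value for 4 samples. Among 20 groups of 4 values that were examined it was the only one, and chance gives about 1 in 20.

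Effects of doxycycline differed between lines in 17 of 30 tests of RUNX1T1 and the 9 genes (edgeR quasi-likelihood interaction terms, adjusted p under 0.05). Such calls were common: of all genes, 17.8% were called higher and 14.7% lower for sh4 against EV. The shares were 23.7% and 21.7% for shAMB against EV, and 27.8% and 33.1% for sh4 against shAMB. Between sh4 and EV the difference in log2 fold change was −0.42 for RCOR1, 0.26 for HDAC1, −0.70 for HMG20B and 0.83 for INSM1. Between shAMB and EV it was −0.55 for KDM1A, 0.89 for RCOR2, −0.32 for RCOR3, −0.68 for HDAC1, −0.36 for HDAC3, 1.02 for INSM1 and 0.21 for RUNX1T1 (adjusted p = 0.0353). That RUNX1T1 call was lost in 8 of 12 fits that left out 1 library (EV DMSO replicate 1 or 3, EV doxycycline 1 or 2, shAMB DMSO 1 or 3, shAMB doxycycline 2 or 3; adjusted p of 0.0523 to 0.0941). Between sh4 and shAMB it was 0.68 for KDM1A, −0.29 for RCOR1, −0.95 for RCOR2, 0.94 for HDAC1, 0.50 for HDAC3 and −0.79 for HMG20B.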

How the results depend on the processing

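Of 666 values of the 9 genes with 1 library left out, 633 kept direction and side of the threshold, 22 lost a call, 11 gained one and 0 reversed. Under the other settings 582 of 639 kept both and 8 reversed, and for named list genes 3183 of 3335 did and 7 reversed. The cause was not tested except where a setting has fewer libraries.

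Removing the GC and length trends reversed HDAC2 (−0.08) in the sh4 line, GATAD2A in it (0.11) and against EV (0.15), HMG20B in the shAMB line (−0.55), GSE1 in it (−0.10), RCOR2 (0.65) and HMG20B (0.01) for sh4 against EV, HMG20B for shAMB against EV (−0.52), and HMG20B (0.52), RCOR2 (0.53), INSM1 (1.01) and GSE1 (0.19) for sh4 against shAMB. It called 58 genes in EV, 780 in sh4 DMSO and 866 in shAMB DMSO against EV DMSO, where 14, 167 and 227 were called without it. Of the 9 genes it called 0 higher in shAMB and for shAMB against EV, 5 higher for sh4 against EV, 6 higher and 1 lower for sh4 against shAMB, 1 higher in shAMB DMSO (HDAC2, 0.11) and 6 lower in tumours. RUNX1T1 became −0.22 in sh4, 0.09 for shAMB against EV, −0.16 for sh4 against shAMB and −0.33 in tumours.

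With deposited TPM, GSE1 reversed in sh4 (0.17) and for sh4 against EV (0.20), and SAP18 in sh4 (0.13). The share of higher calls went from 56% to 80.7% in sh4, from 56.9% to 73% in shAMB, from 54.8% to 83.7% and from 52.2% to 76.7% for these against EV, from 53.3% to 40.5% for sh4 DMSO, and from 51.6% to 72.8% in tumours. The median of all genes moved by 0.12, 0.11, 0.16 and 0.15 in the first 4. TPM called 1968 genes in tumours. Of the 9 genes it called 1 lower in sh4, 2 lower in shAMB and for shAMB against EV, 5 higher and 0 lower for sh4 against EV, and 1 higher and 0 lower in tumours (KDM1A −0.53, adjusted p = 0.332 in limma). RUNX1T1 was 0.23 in shAMB and 0.24 for sh4 against EV. HDAC1 ranked 2 and HDAC2 3 in control tumours. RCOR1 shares were 17.1% in EV doxycycline and 18.8% in shAMB DMSO libraries, and HDAC1 shares were 50.5% in EV doxycycline, 51.9% in sh4 DMSO, 46.7% in shAMB DMSO, 37.8% in shAMB doxycycline and 50.4% in control tumours.

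With the groups of a comparison alone, 6 genes were called in EV, 3727 in sh4, 23 in sh4 DMSO and 85 in shAMB DMSO, with 1 of the 9 lower in sh4 and for sh4 against EV. RUNX1T1 was then −0.29 in sh4 DMSO and 0.15 for shAMB against EV. The latter was 0.16 with RLE factors, 0.17 without a filter, 0.16 with DESeq2 and 0.21 with the replicate block, and its call was lost in each of these, as it was after GC and length removal and with the groups alone (adjusted p of 0.0513 to 0.208). The sh4 DMSO call was lost with the groups alone (adjusted p = 0.217). DESeq2 called 351 genes in sh4 DMSO. In tumours 1 of the 9 was higher without a filter, without small RNA genes and with the block.

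The replicate numbers did not pair the libraries: correlations of same-numbered libraries ran from −0.86 to 0.31 between DMSO and doxycycline and from −0.68 to 0.43 in tumours. As a block they gave 15 called genes for EV, 5974 for sh4, 9756 for shAMB and 4929 for tumours.

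Leaving out 1 library gave 7 to 14 genes called in EV, 4875 to 8050 in sh4, 8816 to 9598 in shAMB, 3753 to 7557 for sh4 against EV, 6081 to 6754 for shAMB against EV, 8073 to 10064 for sh4 against shAMB, 75 to 269 in sh4 DMSO, 125 to 188 in shAMB DMSO and 4961 to 7078 in tumours. The 9 genes gave 3 to 5 higher in sh4, 2 to 4 higher and 1 to 2 lower for sh4 against EV, 1 to 2 higher for shAMB against EV, 3 to 5 higher for sh4 against shAMB, and 1 to 2 higher and 3 to 4 lower in tumours. RUNX1T1 ranged from −0.20 to −0.12 in EV, −0.16 to −0.08 in sh4, 0.03 to 0.07 in shAMB, −0.01 to 0.09 for sh4 against EV, 0.17 to 0.25 for shAMB against EV, −0.22 to −0.10 for sh4 against shAMB, −0.33 to −0.25 in sh4 DMSO, −0.08 to 0.00 in shAMB DMSO and −0.32 to −0.13 in tumours.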
